A study of Mus musculus with 6 samples.

Results

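The 10 genes described here are those that epithelial cells use to signal to immune and stromal cells, or are part of that signalling: Il15 and its receptor Il15ra, the IL-1 family members Il1a, Il1b, Il1rn, Il18 and Il33, the epithelial cytokine Tslp, and the IL-6 family cytokines Il6 and Lif. They were chosen by gene symbol, with earlier results of these arrays already known. The measured value in the rule, the highest mean over the 6 arrays, was meant to settle which of several probe sets stands for a gene, and it settled nothing because each gene had 1 probe set. They are 10 of the 19505 genes that the arrays measured under a symbol. Because the choice was made with results in view, their differences between the genotypes are given as a description.

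RNA came from luminal mammary cells without oestrogen receptor (ER-negative), among which alveolar progenitors are found, sorted from 3 WT and 3 Sox9 KO female mice in diestrus at 8 to 12 weeks of age. All animals carried Sox9Fl/Fl, a conditional allele that works until Cre removes it, on a mixed C57BL/6J and FVB/NJ background. The Sox9 KO animals also carried MMTV-iCre, a Cre transgene driven by a mammary tumour virus promoter that is active in only part of the epithelium, together with an ECFP reporter that Cre switches on. The gate for both genotypes took EpCAM-high cells low in CD49f and negative for lineage markers and Sca1. The antibodies the study lists for sorting include CD31, CD45 and TER-119, which mark endothelial, white and red blood cells. The Sox9 KO cells were gated on ECFP too, so genotype, Cre and that gate cannot be told apart. Each animal gave 1 array, and each array was a Clariom S mouse array, on which a probe set gives 1 signal per transcript on the log2 scale, where a difference of 1 is 2-fold.

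IL-15 is held on the cell surface by its receptor chain IL-15RA and shown to natural killer and CD8 T cells, which need it to survive. IL-1 alpha and IL-1 beta bind the receptor IL1R1 and switch on NF-kB, and IL-1RN, the IL-1 receptor antagonist, occupies the same receptor without signalling. IL-33, IL-1 alpha and TSLP are alarm signals of barrier epithelia, whereas IL-6 and LIF act through the shared chain IL6ST and the transcription factor STAT3, which in the mammary gland LIF uses to start involution after weaning.

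Several of these cytokines are known targets of NF-kB. RefSeq start-site windows of GRCm38.p6, each with 250 bases before and 50 after a start site, were found for 8 of the 10 genes and not for Il15 or Tslp, and were searched on both strands. The 8 genes had 12 windows, and a gene was counted if any of its windows held a match. Counts of genes and shares of windows are thus unlike measures and are not compared. The NF-kB letters, GGG and TTTCC with any 2 bases between, occurred for 2 genes, Il6 and Il1rn, and in 1.63% of all 32851 windows. The SOX letters CATTGT occurred for the same 2 genes and in 12.57% of all windows. The AP-1 letters TGANTCA occurred for 5 genes (Il15ra, Il1a, Il1rn, Il6 and Lif) and in 7.81% of all windows. The interferon-stimulated response element, GAAA and GAAA with any 2 bases between, and the STAT letters TTCNNNGAA occurred for 0 of the 8 and in 3.44% and 8.3% of all windows. The motifs were not chosen independently of these matches. The stretches shown are from Il1rn, which had the largest positive difference after Il15, and from Il6 and Lif, which had the largest negative differences. The AP-1 matches of Il1rn and Il6 are not shown. Capitals mark the match, none of the printed matches overlaps another, and all are on the plus strand, 5′ to 3′.

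Il6 NF-kB, chr5:30013060-30013089: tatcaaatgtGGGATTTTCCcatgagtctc
Il1rn NF-kB, chr2:24345310-24345339: ggaaatatgaGGGTTTTTCCgcttctgaca
Il6 SOX, chr5:30012974-30012999: aacgacgtcaCATTGTgcaatcttaa
Il1rn SOX, chr2:24345147-24345172: gtctggttttCATTGTgctcttcttc
Lif AP-1, chr11:4257330-4257356: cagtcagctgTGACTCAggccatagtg

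The Il6 NF-kB match began 44 bases before the start site. The Il1rn match lay 51 bases before one annotated start site and 29 bases past another, and its central letters are an unbroken run of T. A match is a description of the letters and not evidence of binding.

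Sox9, the deleted gene, had log2 signals of 11.60, 11.54 and 11.47 in WT and of 6.73, 7.84 and 7.51 in Sox9 KO, and fell by 4.18 on the log2 scale, with an adjusted p of 0.00867 in limma. Without any 1 of the WT arrays 0 probe sets passed the adjusted threshold, so that this call was then lost. The deposited table had no detection calls, so signals were set against the 95th percentile of 5222 negative control probe sets, which ranged from 7.75 to 8.58 and is called the bar below. It is a high one, passed by 20.8% to 29.6% of the tested probe sets on an array. All 11 luminal epithelial markers and 10 of 11 ER-negative luminal markers lay above it on every array. Of 9 measured ER-positive luminal markers 0 did so, and 4 lay below it on every array. Correlations between arrays were between 0.967 and 0.988. The lowest were those of Sox9 KO replicate 1, at 0.967 to 0.972 with the WT arrays and 0.969 with Sox9 KO replicate 3. With Sox9 KO replicate 2 it was at 0.981, and pairs without it were at 0.9805 or more.

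Of the 10 cytokine and receptor genes, 7 had higher and 3 lower means in Sox9 KO, and the median of the differences was 0.17 against 0.01 over all probe sets, of which 51.2% were higher. In limma, 0 of the 10 passed an adjusted p of 0.05, a threshold passed by 0.00901% of all probe sets, and their adjusted p values lay between 0.196 and 0.995. An unadjusted p under 0.05 was reached by 1 of 10, Il15, against 9.26% of all probe sets. This count was 2 with array weights (Il1rn added), 2 without WT replicate 1 (Il1rn) or WT replicate 3 (Il18), and 3 without Sox9 KO replicate 3 (Il1rn and Lif). Il15 was also the 1 member past 2-fold with an unadjusted p under 0.05, against 1.14% of all probe sets. It was the 1 member whose groups did not overlap, against 14.1% of all probe sets, or 6.85% for those higher in Sox9 KO. Having 3 arrays a group limits how precise these values are.

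**Figure D1:**
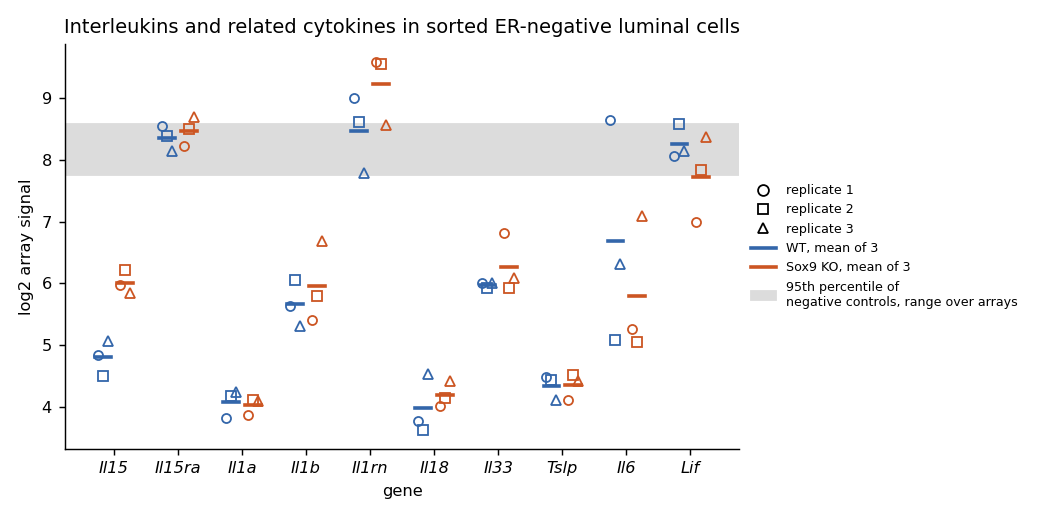
Log2 array signal of the 10 genes on each of the 6 arrays, with symbols by replicate number. The numbers were not taken to pair animals. Bars mark the group means of 3, and a grey band from 7.75 to 8.58 the 95th percentile of the negative controls. Il15 is the gene whose 3 Sox9 KO signals, 5.84 to 6.21, all lie above the 3 WT signals, 4.50 to 5.07.

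Il15 had log2 signals of 4.84, 4.50 and 5.07 in the WT arrays and of 5.97, 6.21 and 5.84 in the Sox9 KO arrays. Every Sox9 KO array was above every WT array, with a gap of 0.77 between the groups, which is wider than the range within WT (0.57) or within Sox9 KO (0.37). Il15 averaged 4.80 ± 0.29 in WT and 6.01 ± 0.19 in Sox9 KO (SD, n = 3 each), a difference of 1.20 in log2 signal (SE 0.18, 95% interval 0.77 to 1.63). No fold change is given, because all 6 signals lay below the negative-control bar. It ranked 23rd of 22206 probe sets by p and had an adjusted p of 0.196 in limma. Larger absolute differences were found in 1.12% of all probe sets.

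The Il15 signal was above 40.9% to 60.2% of the negative controls on the WT arrays and above 73.0% to 77.6% on the Sox9 KO arrays, so it moved from the middle of the negative controls to their upper part. Signals this low are compressed on such arrays. Over the alternative settings and with single arrays left out, the difference was between 1.05 and 1.34, and the adjusted p between 0.102 and 0.536 in limma or the methods' t-test.

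Some basal markers differed in the same direction. All 12 were measured, with 8 higher and 4 lower means, a median difference of 0.19 and 4 at an unadjusted p under 0.05, all higher, and 7 lay below the bar on every array, among them Krt5 and Acta2, which define basal cells and differed by 0.27 (SE 0.22) and 0.10 (SE 0.56). The log2 summed signal of the 12 was 9.98 to 10.78 in WT and 11.69 to 11.84 in Sox9 KO. In Sox9 KO, Krt14 alone made up much of it. The groups were closer by mean level relative to the WT mean, at 0.227, -0.354 and 0.127 in WT and 0.265, 0.750 and 0.716 in Sox9 KO. By that measure Sox9 KO replicate 1 stood near WT replicate 1. Krt14, a basal keratin, had the largest difference of the 12, at 8.59, 7.30 and 8.95 in WT and 11.08, 10.85 and 10.63 in Sox9 KO. Trp63 (difference 1.99, SE 0.38), Krt17 (1.15, SE 0.30) and Snai2 (0.55, SE 0.17) were also higher without overlap. Snai2 lay below the bar on every array. The part of basal cells or of basal gene expression in the Il15 difference was not tested. In sorted RNA, a change in the cells present and a change in RNA per cell cannot be told apart.

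The genes most like Il15 over the 6 arrays, among 10045 genes with a mean above the median, were Eif4e3 of the cap-binding translation factors (Pearson r = 0.993), the zinc finger gene Zfp74 (0.990), the potassium channel subunit Kcns3 (0.986), the carboxypeptidase inhibitor Lxn (0.980) and Zfyve21 (0.979). All 5 were higher in Sox9 KO, by 0.28 to 0.62 on the log2 scale, as the choice by likeness to Il15 implies.

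Il15ra, the chain that presents IL-15, had log2 signals of 8.55, 8.39 and 8.14 in WT and of 8.23, 8.50 and 8.70 in Sox9 KO. The groups overlapped. It averaged 8.36 ± 0.21 in WT and 8.48 ± 0.24 in Sox9 KO (SD, n = 3 each). The difference of 0.12 (SE 0.18, 95% interval -0.29 to 0.52, adjusted p 0.880 in limma) was smaller than the SD within either group. The signal stood near the bar, above it on 1 WT array and on 3 Sox9 KO arrays. The bar itself was at 8.58, 8.40 and 7.87 in WT and at 8.11, 8.15 and 7.75 in Sox9 KO. This count therefore reflects the bar as well as the signal. Whether the differences of Il15 and Il15ra differ from each other was not tested. Of the markers of T and NK cells, which respond to IL-15, 11 of 11 measured lay below the bar on every array. Because the bar is a high one, this does not show that such cells were absent.

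Il1rn, the receptor antagonist, was above the bar on 5 of the 6 arrays. Its log2 signals were 9.0, 8.61 and 7.79 in WT and 9.58, 9.55 and 8.57 in Sox9 KO. Sox9 KO replicates 1 and 2 lay above every WT array, while Sox9 KO replicate 3 lay below WT replicates 1 and 2, so the groups overlapped. The mean was 8.47 ± 0.62 in WT and 9.23 ± 0.57 in Sox9 KO (SD, n = 3 each). The difference was 0.77 (SE 0.37, 95% interval -0.09 to 1.63), with an adjusted p of 0.583 in limma. It was 0.43 without WT replicate 3 and 1.10 without Sox9 KO replicate 3. On all 6 arrays the signal was above 94.6% to 98.8% of the negative controls.

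The agonists that this antagonist opposes, Il1a and Il1b, were below the bar on every array. Il1b, the secreted form that needs cleavage by caspase-1, had log2 signals of 5.63, 6.06 and 5.31 in WT and of 5.40, 5.80 and 6.68 in Sox9 KO. Sox9 KO replicate 3 was the highest and the other Sox9 KO arrays lay within the WT range. The difference of 0.29 (SE 0.34, adjusted p 0.833 in limma) was -0.07 without Sox9 KO replicate 3. Il1a, which acts without such cleavage, was at 3.82, 4.18 and 4.24 in WT and at 3.87, 4.11 and 4.10 in Sox9 KO, a difference of -0.05 (SE 0.16, 95% interval -0.43 to 0.32). Its sign turned without WT replicate 3 or Sox9 KO replicate 1. On no array did Il1a exceed more than 42.5% of the negative controls.

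Myeloid markers were highest on the same Sox9 KO array by their mean level, but not by their summed signal. Of 16 myeloid markers 14 were measured, and 13 lay below the bar on every array, among them Ptprc, Adgre1, Csf1r and Lyz2. S100a8, a neutrophil protein that epithelia also make, was the exception, above the bar on 3 arrays. The mean log2 level of the list, relative to the WT mean, was 0.53 on Sox9 KO replicate 3, against -0.26 to 0.07 on the other 5 arrays. The summed signal of the 14 on the log2 scale was 9.23 to 10.48 in WT and 9.10 to 10.02 in Sox9 KO. Sox9 KO replicate 3 was also highest for the fibroblast (1.42), T and NK cell (0.44) and B cell (0.33) lists. Over the 6 arrays the Pearson r with Il1b was 0.827 for the myeloid, 0.797 for the fibroblast, 0.777 for the T and NK cell and 0.728 for the B cell list. The part of any of these cells in the Il1b signal was not tested.

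Il18, which like IL-1 beta is released by caspase-1, had log2 signals of 3.77, 3.62 and 4.54 in WT and of 4.02, 4.14 and 4.42 in Sox9 KO. WT replicate 3 was the highest and the other WT arrays the lowest. ER-positive luminal markers also stood apart on WT replicate 3, with their mean level at 0.98 against -0.55 to -0.24 on the other 5 arrays and a log2 summed signal of 11.66 against 9.70 to 10.20, and their part in the Il18 signal was not tested. Esr1, which defines those cells, lay below the bar on every array. The Il18 difference was 0.22 (SE 0.25, adjusted p 0.837 in limma), and 0.50 without WT replicate 3. Il33, a nuclear alarm signal, was at 6.0, 5.93 and 6.0 in WT, the narrowest WT range of the 10 genes at 0.07. In Sox9 KO it was at 6.82, 5.92 and 6.08, so that replicate 1 stood apart and replicate 2 lay below WT. The difference of 0.30 (SE 0.23, adjusted p 0.741 in limma) became 0.02 without Sox9 KO replicate 1. Tslp was at 4.49, 4.43 and 4.11 in WT and at 4.11, 4.52 and 4.42 in Sox9 KO. Its difference was 0.01 (SE 0.17, 95% interval -0.39 to 0.40), with a sign that turned under median centring or quantile normalization. Il18, Il33 and Tslp lay below the bar on every array.

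Il6 varied most, over a range of 3.60 on the log2 scale. It was at 8.65, 5.09 and 6.31 in WT and at 5.26, 5.05 and 7.10 in Sox9 KO. WT replicate 1 and Sox9 KO replicate 3 were the highest arrays, and WT replicate 2 lay with the lowest Sox9 KO arrays. The signal was above the bar on 1 array, WT replicate 1. The mean was 6.68 ± 1.81 in WT and 5.80 ± 1.13 in Sox9 KO (SD, n = 3 each). The difference of -0.88 (SE 0.89, 95% interval -2.95 to 1.19, adjusted p 0.808 in limma) was within the spread of the arrays, and it turned to 0.10 without WT replicate 1.

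The 2 arrays with the highest Il6 were also the 2 with the highest stromal markers. The endothelial list stood at 0.64 on WT replicate 1 and at 0.32 on Sox9 KO replicate 3, relative to the WT mean, and at -0.50 to -0.15 on the other 4 arrays. All 10 endothelial markers were measured, and all 10, including Pecam1 and Cdh5, lay below the bar on every array, with a log2 summed signal of 8.21 to 9.60 in WT and 8.30 to 9.10 in Sox9 KO. The fibroblast list stood at 0.43 and 1.42 on the same arrays and at -0.26 to 0.08 on the others. Of its 11 markers 9 were measured and 6 lay below the bar on every array, with a log2 summed signal of 9.31 to 10.42 in WT and 9.08 to 11.49 in Sox9 KO. Dcn, a matrix proteoglycan of fibroblasts, was at 9.60 on WT replicate 1, at 10.56 on Sox9 KO replicate 3 and at 6.76 to 7.73 on the others. The part of stromal cells, of which the CD31 antibody marks the endothelial ones, in the Il6 signal was not tested.

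**Figure D2:**
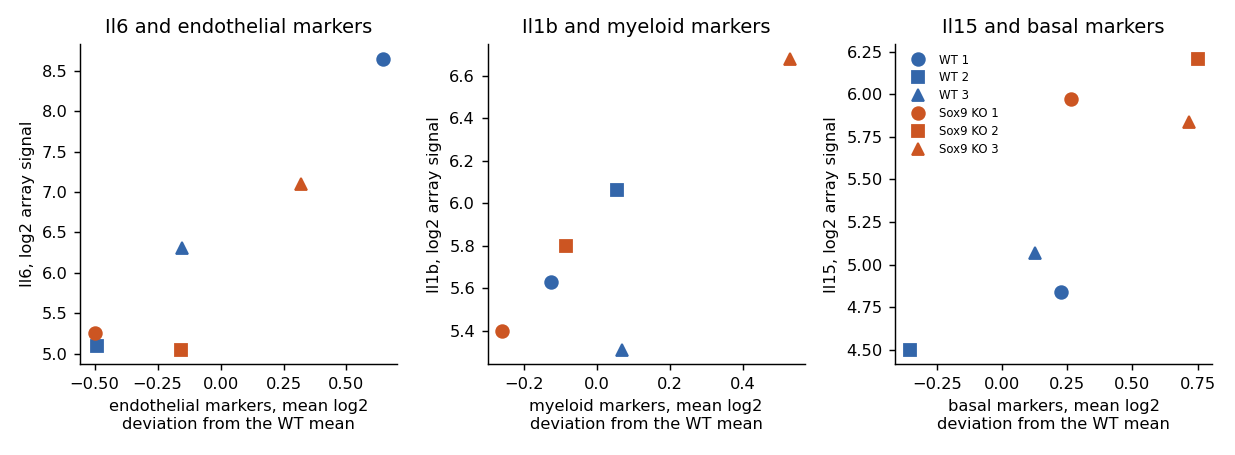
Log2 array signal of Il6, Il1b and Il15 (vertical axes) against the mean log2 deviation of endothelial, myeloid and basal marker lists from the WT mean (horizontal axes), with 1 point per array. WT replicate 1 and Sox9 KO replicate 3 are highest on both axes for Il6, Sox9 KO replicate 3 is highest on both for Il1b, and the 3 Sox9 KO arrays are highest on both for Il15.

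Lif had log2 signals of 8.07, 8.58 and 8.14 in WT and of 6.99, 7.83 and 8.37 in Sox9 KO. Sox9 KO replicates 1 and 2 lay below every WT array and replicate 3 lay within the WT range. The signal was above the bar on 2 WT arrays and on 1 Sox9 KO array. The mean was 8.26 ± 0.28 in WT and 7.73 ± 0.70 in Sox9 KO (SD, n = 3 each). The difference was -0.53 (SE 0.33, 95% interval -1.31 to 0.24), with an adjusted p of 0.672 in limma. With Sox9 KO replicate 1 left out it was -0.16, and with replicate 3 left out -0.85. On Sox9 KO replicate 1, where Lif was lowest and Il33 highest, the ER-negative luminal list stood at -0.64 relative to the WT mean, the lowest of the 6 arrays, and its part in these signals was not tested.

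**Figure D3:**
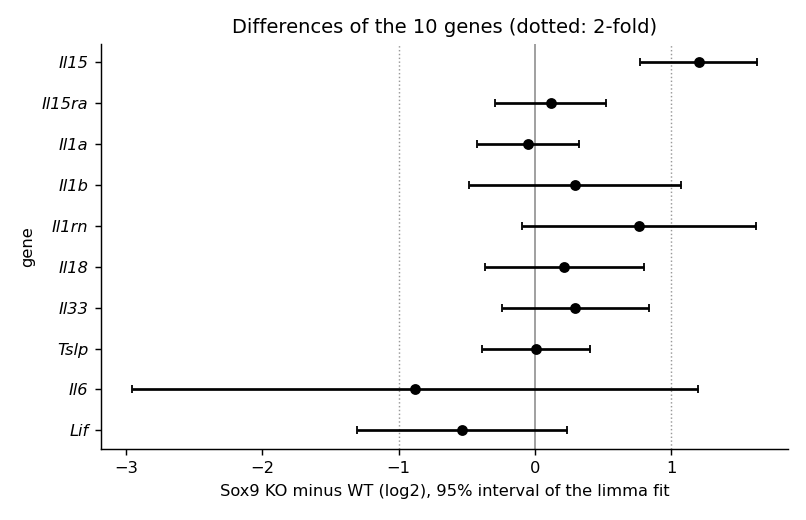
Difference between Sox9 KO and WT in log2 array signal for each of the 10 genes (points), with 95% intervals of the limma fit over 3 arrays a group and dotted lines at 2-fold. The interval of Il15, 0.77 to 1.63, lies above 0, and those of the other 9 genes include 0.

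The receptors, adaptors, kinases and inducers around these cytokines were taken from 10 lists of 131 genes, of which 116 were measured. In limma, 0 passed an adjusted p of 0.05, while 23 of 116 (19.8%) reached an unadjusted p under 0.05 against 9.26% of all probe sets. Of these 23, 21 were lower and 2 higher in Sox9 KO. The mean levels of luminal markers were lower as well. In Sox9 KO replicates 1 to 3 the luminal epithelial list was at -0.46, -0.11 and -0.24 relative to WT and the ER-negative luminal list at -0.64, -0.26 and -0.30, each with 4 of 11 markers at an unadjusted p under 0.05, all lower. On the log2 scale the summed signals were 15.71 to 15.77 in WT and 15.34 to 15.59 in Sox9 KO for the first list, and 15.13 to 15.54 and 14.84 to 15.16 for the second. Their part in the pathway counts was not tested. The groups did not overlap for 31 of 116 (26.7%), 24 lower and 7 higher, against 14.1% of all probe sets. Past 2-fold with an unadjusted p under 0.05 were 4 genes (3.45% against 1.14%), Irak3, Osmr and Nfkbiz as lower and Pycard as higher. The median difference over the 116 was -0.05. Without WT replicate 2 the counts at an unadjusted p under 0.05 were 12 lower and 1 higher, and without Sox9 KO replicate 3 they were 24 and 6.

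Of 11 measured IL-1 receptor and Toll adaptors, 7 were lower and 4 higher. Of these, 4 had an unadjusted p under 0.05, all lower, with a list median of -0.18. Irak3, an inhibitory member of the IRAK family, was at 10.20, 9.88 and 9.99 in WT and at 8.62, 9.09 and 9.22 in Sox9 KO, a difference of -1.05 (SE 0.19, adjusted p 0.196 in limma). The ubiquitin ligase Traf6, which passes the signal on to NF-kB, differed by -0.59 (SE 0.12), and Tollip, which restrains IL-1 receptor signalling, by -0.77 (SE 0.21). For all 3 genes the groups did not overlap. The list thus holds a transmitter and brakes of the same pathway among its lower genes.

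Of 10 measured IL-1 family receptors, 5 were higher and 5 lower, with a median of 0.01. Il1r1, the signalling receptor, was at 8.96, 8.64 and 7.89 in WT and at 8.06, 7.85 and 7.69 in Sox9 KO (difference -0.63, SE 0.27, adjusted p 0.534 in limma), and the groups overlapped. Its partner Il1rap differed by -0.67 (SE 0.37), with Sox9 KO replicate 3 the lowest array at 6.70. Il18r1, a chain of the IL-18 receptor, differed by 1.24 (SE 0.65), but WT replicate 3, at 7.05, lay among the Sox9 KO arrays at 6.01 to 7.19. Il18r1 lay below the bar on every array.

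The inflammasome list, whose products cleave and release IL-1 beta and IL-18, was evenly divided, with 7 of 14 higher and a median of 0.06. Pycard, the adaptor that joins inflammasome sensors to caspase-1, was at 8.46, 7.99 and 8.21 in WT and at 10.16, 9.33 and 8.98 in Sox9 KO. Every Sox9 KO array was above every WT array, and the difference was 1.27 (SE 0.29), or 2.41-fold, with an adjusted p of 0.276 in limma. Pycard was above the bar on 4 arrays and below it on WT replicates 1 and 2, so this fold rests partly on signals below the bar. Casp4, the mouse caspase-11 gene of the non-canonical inflammasome, differed by -0.56 (SE 0.22) with overlapping groups, and the DNA sensor Aim2 by 0.32 (SE 0.14). Aim2 lay below the bar on every array. Casp1 itself, named after its value was seen, differed by 0.31 (SE 0.19, adjusted p 0.669 in limma). Of other IL-1 family ligands, Il1f10 was the 1 measured of 5 and differed by 0.14 (SE 0.17), below the bar on every array.

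On the IL-6 side, 4 of 7 measured receptors were lower, with a median of -0.22. Osmr, the oncostatin M receptor chain, was at 10.19, 10.40 and 9.76 in WT and at 8.72, 9.46 and 8.94 in Sox9 KO. The difference was -1.08 (SE 0.24), or 2.11-fold lower, with an adjusted p of 0.256 in limma, and the groups did not overlap. Il6ra, the chain that binds IL-6, differed by -0.73 (SE 0.23), also without overlap, and Il31ra by 0.29 (SE 0.16). Il31ra lay below the bar on every array. The shared chain Il6st differed by -0.22 (SE 0.12) and Lifr by -0.57 (SE 0.39), and both are named after their values were seen.

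Of 7 measured IL-6 family ligands beside Il6 and Lif, 4 were higher and 3 lower. Clcf1, a ligand of the ciliary neurotrophic factor receptor, was at 9.25, 9.35 and 8.91 in WT and at 8.02, 8.37 and 8.56 in Sox9 KO, a difference of -0.85 (SE 0.19, adjusted p 0.256 in limma). Il11, a cytokine of the same family, was higher without overlap, by 0.38 (SE 0.15, adjusted p 0.490 in limma), and below the bar on every array. Il31 differed by -0.24 (SE 0.16) and also lay below the bar on every array.

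Of 18 measured JAK kinases, STAT factors and SOCS inhibitors, 15 were lower, with a median of -0.32 and 6 at an unadjusted p under 0.05, all lower. Jak2 was at 8.64, 8.53 and 8.47 in WT and at 7.79, 7.64 and 8.10 in Sox9 KO (difference -0.70, SE 0.16, adjusted p 0.256 in limma). Jak1, the kinase that IL-6 family and IL-15 receptors share, differed by -0.47 (SE 0.15), and the inhibitor Socs5 by -0.56 (SE 0.21), with no overlap for either. Both kinases and inhibitors were thus among the lower genes.

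Receptors and ligands of the common gamma chain family and of TSLP had a median difference of -0.0033 over 15 measured genes, with 0 at an unadjusted p under 0.05. The smallest p values were those of Il4ra (difference -0.57, SE 0.26), Il13ra1 (-0.46, SE 0.21) and Il7 (0.76, SE 0.38). Of them the groups did not overlap for Il4ra. Crlf2, the TSLP receptor chain, differed by 0.08 (SE 0.15), and Il2rb, which binds presented IL-15, by 0.20 (SE 0.28), both named after their values were seen. Il7 and Il2rb lay below the bar on every array.

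Among 18 other measured interleukins, 16 lay below the bar on every array and 1 had an unadjusted p under 0.05, Il19 with a difference of -0.40 (SE 0.14). Il34, a ligand of the CSF1 receptor, differed by 0.42 (SE 0.19) and Il25 by 0.22 (SE 0.13). Il19, Il34 and Il25 lay below the bar on every array. Of 15 measured inducers, 12 were lower, with a median of -0.26 and 5 at an unadjusted p under 0.05, all lower and all of the NF-kB group. The smallest p values were those of Nfkbiz, needed for Il6 induction (difference -1.04, SE 0.17), Rel (-0.86, SE 0.21) and Relb (-0.79, SE 0.20), with adjusted p values of 0.196 to 0.315 in limma. The study came to NF-kB genes on these samples, and it also reported lower Rel, Rela, Nfkb1, Relb and Nfkb2 by qRT-PCR. Here Nfkb1 was not measured, and this list is not independent evidence of the study's direction. Irf1, an inducer of Il15 after interferon, differed by 0.07 (SE 0.19) and is named after its value was seen.

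**Figure D4:**
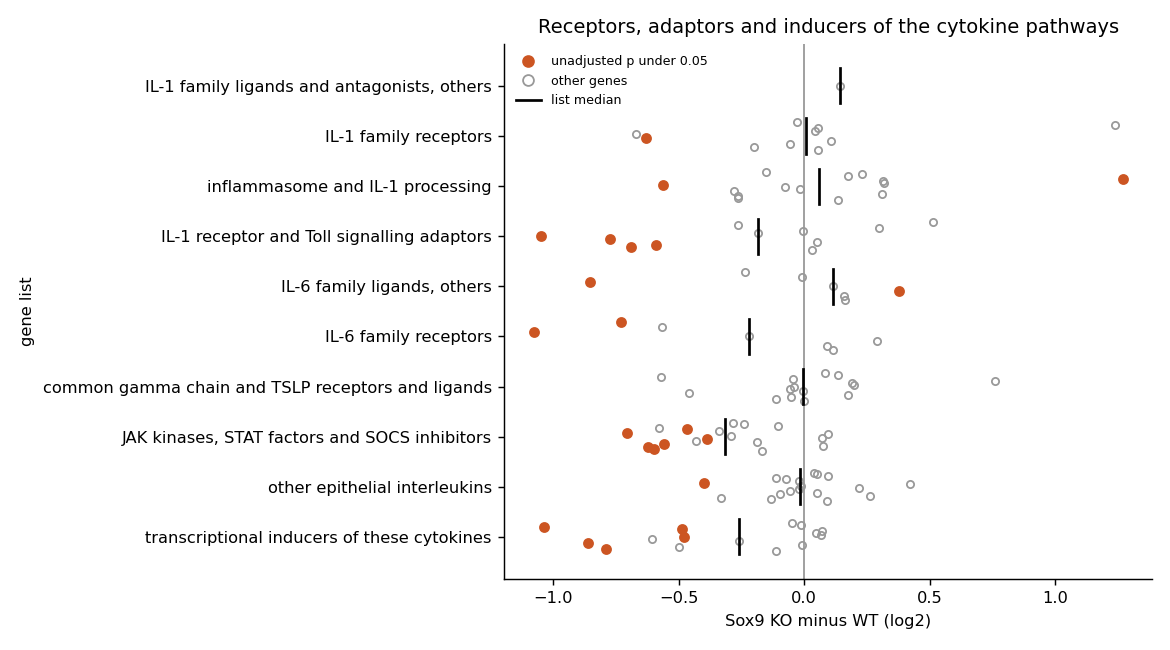
Difference between Sox9 KO and WT in log2 array signal for the 116 measured genes of the 10 pathway lists (1 point per gene), with filled points for an unadjusted p under 0.05 and black bars at list medians. Filled points lie to the left of 0 except Pycard at 1.27 and Il11 at 0.38.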

How the data were processed

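The authors hybridised total RNA of 6 sorted samples to Affymetrix Clariom S Pico mouse arrays and handled the scans in Expression Console and Transcriptome Analysis Console. They deposited log2 signals with 2 decimals. The log2 scale was inferred from the values. How background was corrected and signals normalized and summarised is not given in the sources used here. Of 28846 probe sets, 6640 controls were left out and 22206 tested. The platform annotation, updated by gene identifier against RefSeq of GRCm38.p6, gave 1 symbol to 19572 and left 2634 unnamed. Where a symbol had several probe sets, the one with the highest mean stood for it.

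The test was that of limma 3.58.1 (lmFit and eBayes in R 4.3.3, two-sided, no covariates, Benjamini-Hochberg over the 22206 probe sets, threshold 0.05). The fit was tested on simulated data. A difference is the Sox9 KO mean less the WT mean, with the fit's SE. List levels on an array are the mean log2 deviation from the WT mean, or the log2 of the summed linear signals. The 10 genes, the lists and the motifs were chosen with earlier results of these data known. Genes named from each pathway list are the 3 with the smallest p, and others are marked. Genes like Il15 are the 5 with the highest correlation over the 6 arrays. Alternatives were median centring, quantile normalization, a filter on the dimmest 25% of probe sets, trended robust variance, array weights, a replicate block, the methods' t-test and each array left out.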

Additional observations from a re-analysis of the deposited data

How the results depend on the processing

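With each array left out in turn, the number of probe sets past the adjusted threshold, 2 in all arrays, was 0 to 20, and it was 0 with the replicate block and with the methods' t-test. Of the 10 genes, 1 to 2 passed 2-fold with an unadjusted p under 0.05 (the second, Il1rn, without WT replicate 1 or Sox9 KO replicate 3), and 1 to 3 had groups that did not overlap. An unadjusted p under 0.05, an alternative count added after the data were seen, was reached by 1 to 3, and by 2 with array weights or the replicate block. Groups of 2 arrays overlap less easily than groups of 3. Of the 116 pathway genes, 0 passed the adjusted threshold, 4 passed 2-fold with an unadjusted p under 0.05 and 31 had groups without overlap. At an unadjusted p under 0.05, with alternatives chosen after the counts were seen, 12 to 24 were lower and 1 to 6 higher without single arrays. With array weights 21 were lower and 4 higher, and with the methods' t-test 15 were lower and 5 higher. The cause was not tested.

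Signs turned for Tslp with quantile normalization (-0.0061) and median centring (-0.035), and without single arrays for Tslp (-0.11 to 0.13), Il1a (-0.18 to 0.0267), Il1b (-0.0667 to 0.57) and Il6 (-1.68 to 0.10). The other 6 genes kept their direction under every alternative, and 0 of the 10 passed the adjusted threshold under any. Il1a, Il18 and Tslp are not in the fit without the dimmest probe sets. The mean over probe sets was not run, as each gene had 1. Correlations of same-numbered deviations across the genotypes were 0.119, -0.034 and 0.033, and those of differently numbered arrays lay between -0.158 and 0.145. With 3 arrays a group, these values cannot decide whether the numbers pair animals, and the main fit used no pairing. The replicate block changed no adjusted call on the 10 genes, while Il1rn had an unadjusted p of 0.00232 with it in limma. The signals of Il15, Il1a, Il1b, Il18, Il33 and Tslp stood below the negative-control bar on every array. Il6 was above it on 1 array, Lif on 3, Il15ra on 4 and Il1rn on 5, so that 0 of the 10 genes cleared it on all arrays. This limits what can be read from these signals.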
